A study of Mus musculus with 12 samples.

Results

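Muscle stem cells (MuSCs) that lack the catalytic part of the E3 ubiquitin ligase Nedd4L were compared with wild-type (WT) MuSCs across all genes. The comparison uses 6 of the 12 libraries of the series, 3 from Nedd4L-cKO mice and 3 from WT mice, each from a different mouse. The other 6 libraries, from other WT mice, pair freshly sorted MuSCs with myoblasts grown from them for 3 days. The Nedd4L-cKO mice are Nedd4L fl/fl; Pax7 cre/+ on a C57BL/6 background, so that Cre is made from the Pax7 locus and removes exon 15 of Nedd4l, which belongs to the catalytic domain, in cells that express or have expressed Pax7. The sources used here do not give whether the WT controls carry Cre or a floxed allele. The WT and Nedd4L-cKO mice compared were males aged 5 to 6 weeks, and the age of the culture mice is not given in the sources used here. MuSCs were sorted from hindlimb muscle as ITGA7+, Hoechst+ cells that were negative for CD31, CD45, CD11b and SCA1, and 1000 cells went into each library. Libraries were made by SMART-Seq, a method that copies and amplifies whole transcripts. Expression is given as RPM, that is, normalized counts per 1000000 of the mean total of the 6 libraries. The table lists 16169 genes, of which 15304 had at least 10 normalized counts in at least 3 libraries and were tested with limma on log2(RPM + 1). A gene was called when its adjusted p was at most 0.05, its log2 fold change at least 1 in size and its mean at least 5 RPM. Log2 fold changes are Nedd4L-cKO minus WT on the log2(RPM + 1) scale and come out too small for genes near 0.

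MuSCs lie between the myofiber and its basal lamina, where they rest outside the cell cycle until injury activates them, and Pax7 is the transcription factor that marks them. Nedd4L belongs to the HECT family of E3 ligases, which bind substrates through WW domains and attach ubiquitin to them, and it is best known for removing the epithelial sodium channel and components of TGF-beta signalling. Interferons and TNF act on resting cells through STAT, IRF and NF-kB factors and induce GTPases, antigen presentation genes and chemokines.

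Normalized counts summed to between 40323468 and 50687122 per library, read depth is unknown, and within a group the lowest correlation of log2 values between libraries lay between 0.957 and 0.968. The labels give no batch, date or time of day. The sorted cells carried the markers of MuSCs: Pax7 was at 183, 302 and 223 RPM in the WT mice and 156, 202 and 188 RPM in Nedd4L-cKO mice, and the groups overlapped (log2 fold change -0.35, 95% confidence interval -0.92 to 0.22, adjusted p = 0.572). The summed level of 12 MuSC markers was 7905, 10045 and 6134 RPM in WT and 5246, 6829 and 8742 RPM in Nedd4L-cKO, with 1 of them called. Of the 12, 2 had a log2 fold change above 0 (16.7%, against 50.1% of all tested genes), and 3 had an unadjusted p under 0.05 in the lower and 0 in the higher direction. Ptprc, which encodes CD45, was under 1 RPM in every library, and 7 of 14 haematopoietic markers were listed, summing to 3.47, 3.55 and 40.4 RPM in WT and 2.98, 8.59 and 10.4 RPM in Nedd4L-cKO. That sum was highest in WT replicate 03, through Lyz2, and none of its members was called. Endothelial markers (8 of 12 listed) summed to 27.3, 33.7 and 31.3 RPM in WT and 38.6, 42.7 and 83.6 RPM in Nedd4L-cKO, higher in every Nedd4L-cKO library. Of the 7 tested, 2 had an unadjusted p under 0.05 in the higher and 0 in the lower direction, and 0 were called. Ly6a, which encodes SCA1, reached at most 2.69 RPM, whereas the 13 fibroblast markers together summed to 3678, 2145 and 3058 RPM in WT and 4023, 3046 and 1977 RPM in Nedd4L-cKO, with overlapping groups. The 10 smooth muscle and pericyte markers summed to 1375, 1268 and 2088 RPM in WT and 2303, 2717 and 3519.6 RPM in Nedd4L-cKO, higher in every Nedd4L-cKO library, and 6 of the 10 had an unadjusted p under 0.05 in that direction, though none was called. Among them Rgs5, a pericyte marker, was at 280.1, 569.8 and 1034 RPM in the WT mice and 355, 1270.4 and 1945 RPM in Nedd4L-cKO mice, with overlapping groups, and Higd1b was at 10.3, 9.24 and 56.5 RPM in the WT mice and 66.9, 104 and 100.3 RPM in Nedd4L-cKO mice. The 15 markers of mature myofibers summed to 618, 381 and 423 RPM in WT and 873, 725 and 725 RPM in Nedd4L-cKO, also higher in every Nedd4L-cKO library, with 8 at an unadjusted p under 0.05 and 0 called. The markers of Schwann cells (0 of 8 called, median log2 fold change -0.54) and of tenocytes (0 of 6 called, -0.11) overlapped between the groups in their sums. The part of such cells or of their RNA in the results was not tested, and in these bulk libraries fewer cells of a type and less RNA per cell cannot be told apart.

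Nedd4l (chr18:65020724-65350899, + strand, GRCm39) was at 70.2, 96.4 and 66.7 RPM in the WT mice and 30.2, 36.3 and 22.5 RPM in Nedd4L-cKO mice. Every Nedd4L-cKO library lay below every WT library, and signal remained in each of them (log2 fold change -1.37, SE 0.28, limma adjusted p = 0.0467). Values are summed per gene, so transcripts that lack the removed exon cannot be told apart from intact ones. The source of the remaining signal was not tested. The call of Nedd4l is near the threshold. Its adjusted p lay between 0.020 and 0.197 over the alternatives, and it passed 0.05 without WT replicate 03 alone among the 6 fits that each left out a library. Of the other 22 tested genes of the HECT family, its adaptors and the Sgk kinases that regulate it, none was called, and Nedd4, the closest relative, was at 719, 889.6 and 651 RPM in the WT mice and 667, 504 and 709.9 RPM in Nedd4L-cKO mice (log2 fold change -0.27, 95% confidence interval -0.80 to 0.27).

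Of the 15304 tested genes 100 were called (0.653%), 69 of them higher (0.451%) and 31 lower (0.203%) in Nedd4L-cKO MuSCs. In all 100 the values of the groups did not overlap, beside 9.75% of tested genes that were higher without overlap and 9.59% that were lower. The median log2 fold change was 1.95 for the genes that rose, -1.66 for those that fell and 0.0015 over all tested genes. Genes with an unadjusted p under 0.05 were 7.51% of the tested genes in the higher and 7.13% in the lower direction. By what the called genes are known to do, the largest rising groups were 13 chemokines, cytokines and TNF-induced genes and 11 interferon-inducible genes. Next came 8 stress genes and 7 genes of secreted, matrix or membrane proteins. The genes that fell included 3 clock or cold-inducible genes and 6 genes of the cell surface and matrix. The number of calls depended on single libraries. It was 62 without WT replicate 01, 32 without WT replicate 02, 49 without Nedd4L-cKO replicate 01 and 17 without Nedd4L-cKO replicate 02, against 148 without WT replicate 03 and 135 without Nedd4L-cKO replicate 03. The share of calls that were higher ran from 49.6% without Nedd4L-cKO replicate 03 (67 higher, 68 lower) to 90.3% without WT replicate 01. Scaling each library to its own total left 87 calls, of which 49 were higher (56.3%, against 69.0%). An adjusted p of at most 0.05 was kept in all 6 of these fits by 17 of the 100 genes. These were Dcx, Gm4841, Tnfaip2, Ces1d, Ccl11, Ifi47, BC023105, Cxcl10, Cdc42ep3, Ms4a4d, Ccl7, Clu, Ccl2, Tm4sf1 and Cxcl1 among the genes that rose, and Nr1d1 and Chrdl2 among those that fell. Among the 69 genes that rose, the highest Nedd4L-cKO value was in replicate 01 for 24, in replicate 02 for 30 and in replicate 03 for 15.

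**Figure D1:**
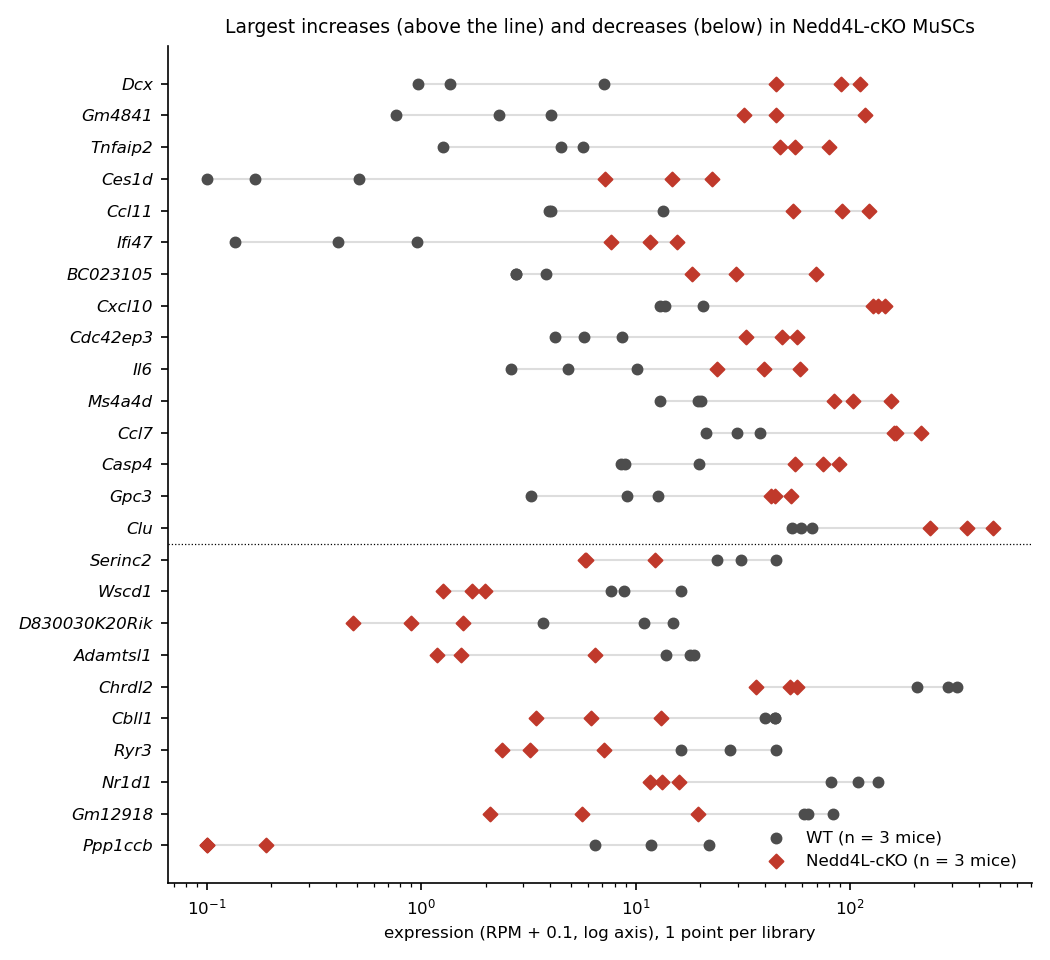
Expression of the 15 called genes with the largest increases and the 10 with the largest decreases, in RPM + 0.1 on a log axis, with 1 point per library (grey circles 3 WT mice, red diamonds 3 Nedd4L-cKO mice). For each of the 25 genes the 3 Nedd4L-cKO points lie wholly on the other side of the 3 WT points.

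Several genes that encode chemokines and cytokines rose, each with values in all 3 Nedd4L-cKO libraries above those of all WT libraries. Of 28 tested members of the chemokine and cytokine list 7 were called higher and 0 lower, 13 had an unadjusted p under 0.05 and were higher, and the list's median log2 fold change was 0.68, beside 0.0015 over all genes. The summed level of the list was 306, 427 and 406 RPM in WT and 1620.4, 1407 and 1482 RPM in Nedd4L-cKO, without overlap. Cxcl10, a ligand of the chemokine receptor CXCR3 of T cells, was at 12.95, 13.7 and 20.6 RPM in the WT mice and 134, 145 and 127 RPM in Nedd4L-cKO mice (log2 fold change 3.05, SE 0.26, limma adjusted p = 0.00123). The 3 Nedd4L-cKO libraries lay close together and far above all WT libraries. Ccl11, which attracts eosinophils, was at 3.85, 3.94 and 13.3 RPM in the WT mice and 54.3, 123 and 91.96 RPM in Nedd4L-cKO mice (log2 fold change 3.62, adjusted p = 0.0038). Ccl7, a monocyte attractant, was at 21.1, 37.8 and 29.6 RPM in the WT mice and 161, 164 and 215 RPM in Nedd4L-cKO mice (log2 fold change 2.59, adjusted p = 0.00296). Ccl2, its neighbour on chromosome 11 and close relative, was at 25.6, 41.02 and 23.7 RPM in WT and 172, 177 and 135 RPM in Nedd4L-cKO (log2 fold change 2.42, adjusted p = 0.00296). These 3 CC chemokine genes lie in a single cluster on chromosome 11, from chr11:81926397-81928279 for Ccl2 to chr11:81948618-81953781 for Ccl11, and in each of them every Nedd4L-cKO library was above every WT library.

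The neutrophil attractants moved in the same direction. Cxcl1 was at 141, 226 and 177 RPM in the WT mice and 882, 548 and 669 RPM in Nedd4L-cKO mice (log2 fold change 1.94, adjusted p = 0.00894). Cxcl2 was at 1.18, 1.59 and 0.548 RPM in WT and 10.5, 9.46 and 8.72 RPM in Nedd4L-cKO (log2 fold change 2.35, adjusted p = 0.0138), so that neither overlapped between groups. Il6, the cytokine that signals through Jak and Stat3, was at 2.52, 4.72 and 10.03 RPM in the WT mice and 39.7, 58.3 and 24.004 RPM in Nedd4L-cKO mice (log2 fold change 2.696, adjusted p = 0.0225). It was lowest in WT replicate 01 and highest in Nedd4L-cKO replicate 02, and it passed 0.05 in 3 of the 6 fits that left out a library. Tnfaip2, a gene that TNF induces, was at 1.16, 5.58 and 4.37 RPM in the WT mice and 80.2, 55.5 and 47.04 RPM in Nedd4L-cKO mice (log2 fold change 3.83, adjusted p = 0.00296). Tnfaip6, whose product binds hyaluronan, was at 144, 140.1 and 116 RPM in WT and 391, 479 and 300.3 RPM in Nedd4L-cKO (log2 fold change 1.52, adjusted p = 0.0236). Il12a, a subunit of the cytokine interleukin-12, Lbp, which presents bacterial lipopolysaccharide, Ier3, an early response gene, and the pseudogene Ccl19-ps1 rose as well, with log2 fold changes between 1.31 and 1.91. Of 33 tested NF-kB subunits and TNF response genes, Tnfaip2 and Tnfaip6 were called higher and 0 lower, and the median was 0.14. Over all tested genes 0.451% were called higher. Of the 33, 6 had an unadjusted p under 0.05 in the higher and 1 in the lower direction. The list's sum was 2987, 3301 and 2872 RPM in WT and 4483, 3964 and 3508 RPM in Nedd4L-cKO, without overlap. Of 25 tested genes of the IL6 receptor family, Jak and Stat none was called, 1 had an unadjusted p under 0.05 in the higher and 2 in the lower direction, and the median was -0.24. The member with the smallest p, Cish, a feedback inhibitor of Stat5 signalling, was at 6.36, 1.11 and 5.25 RPM in the WT mice and 17.9, 13.1 and 28.1 RPM in Nedd4L-cKO mice, without overlap (log2 fold change 2.11, adjusted p = 0.0721). Il6ra, which encodes the IL6-binding receptor chain, was low throughout, at 2.99, 0.838 and 0.982 RPM in WT and 0.077, 0.236 and 0.425 RPM in Nedd4L-cKO (log2 fold change -0.98, adjusted p = 0.188).

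Promoters of 7 genes that rose are shown because each holds the letters of an NF-kB site, namely 6 of the 13 chemokines, cytokines and TNF-induced genes, not all of which are in the promoter table, and B2m. In the RefSeq promoter table (GRCm38.p6), which held 51 of the 69 genes that rose and 20 of the 31 that fell, the 250 bases before the transcription start were searched on both strands for GGANTTTCC, an NF-kB site, for GAAANNGAA, the core of the interferon-stimulated response element (ISRE), and for the clock E-box CACGTG. The NF-kB letters were found at 7 of the 51 genes that rose (13.7%) and 2 of the 20 that fell, Serinc2 and Nr1d2, beside 1.36% of the 11142 tested genes in the table and 1.25% of all 27025 promoters. The ISRE letters were found at 7 of 51 (13.7%) and 2 of 20, beside 7.49% and 8.18%, and the E-box at 5 of 51 (9.80%) and 2 of 20, beside 9.38% and 6.86%. The 7 genes that rose and hold the NF-kB letters follow, each written 5′ to 3′ toward the start with matches to any of the 3 motifs in capitals. Cxcl1 and Cxcl2 are neighbours and near relatives, so they are not independent. A match says only that the letters are present.
Cxcl10, chr5:92348890-92349139, - strand: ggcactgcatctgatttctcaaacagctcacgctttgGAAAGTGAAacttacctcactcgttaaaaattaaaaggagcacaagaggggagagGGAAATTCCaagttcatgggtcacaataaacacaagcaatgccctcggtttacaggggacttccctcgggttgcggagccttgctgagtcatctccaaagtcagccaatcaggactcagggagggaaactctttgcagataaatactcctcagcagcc
Cxcl1, chr5:90890995-90891244, + strand: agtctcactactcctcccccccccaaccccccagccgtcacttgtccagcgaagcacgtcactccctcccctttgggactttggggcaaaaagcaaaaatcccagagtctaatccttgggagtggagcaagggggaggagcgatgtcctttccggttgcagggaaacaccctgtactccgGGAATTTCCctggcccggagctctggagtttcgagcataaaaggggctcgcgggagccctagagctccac
Cxcl2, chr5:90903649-90903898, + strand: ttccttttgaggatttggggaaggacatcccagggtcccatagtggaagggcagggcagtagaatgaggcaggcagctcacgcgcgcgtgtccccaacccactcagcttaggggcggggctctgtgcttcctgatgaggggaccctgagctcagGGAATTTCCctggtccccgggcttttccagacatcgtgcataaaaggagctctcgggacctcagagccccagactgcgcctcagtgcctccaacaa
Il6, chr5:30012864-30013113, + strand: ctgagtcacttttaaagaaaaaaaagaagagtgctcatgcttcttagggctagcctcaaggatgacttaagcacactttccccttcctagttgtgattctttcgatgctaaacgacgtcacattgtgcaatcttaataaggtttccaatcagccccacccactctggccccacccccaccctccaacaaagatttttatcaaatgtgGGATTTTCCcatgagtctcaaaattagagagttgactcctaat
Tnfaip2, chr12:111442411-111442660, + strand: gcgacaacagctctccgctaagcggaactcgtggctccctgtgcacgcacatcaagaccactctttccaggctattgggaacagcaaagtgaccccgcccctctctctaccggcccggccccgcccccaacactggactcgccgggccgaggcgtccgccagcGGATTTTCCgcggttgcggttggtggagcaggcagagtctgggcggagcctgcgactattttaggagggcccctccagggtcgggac
Ier3, chr17:35821463-35821712, + strand: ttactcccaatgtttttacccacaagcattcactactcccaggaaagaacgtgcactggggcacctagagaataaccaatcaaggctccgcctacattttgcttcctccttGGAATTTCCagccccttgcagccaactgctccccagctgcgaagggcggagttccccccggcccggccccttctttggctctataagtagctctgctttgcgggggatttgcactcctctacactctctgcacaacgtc
B2m, chr2:122147437-122147686, + strand: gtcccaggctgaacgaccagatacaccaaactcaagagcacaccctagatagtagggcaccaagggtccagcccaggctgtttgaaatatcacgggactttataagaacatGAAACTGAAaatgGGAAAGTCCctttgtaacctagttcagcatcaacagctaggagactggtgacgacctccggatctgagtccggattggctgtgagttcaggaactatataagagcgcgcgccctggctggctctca

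Interferon-inducible genes were the next group that rose. The immunity-related GTPases (IRGs), which interferon gamma induces and which attack the vacuoles of intracellular parasites, had 3 of 21 tested members of the interferon-inducible GTPase list called higher and 0 lower, 9 with an unadjusted p under 0.05 and higher, and a median log2 fold change of 0.51. The summed level of the list was 217, 249.99 and 269 RPM in WT and 562, 933 and 739.8 RPM in Nedd4L-cKO, without overlap. Not every called gene named below is in the list. Gm4841, a member of the IRG family, was at 2.21, 3.92 and 0.659 RPM in the WT mice and 45.1, 117 and 32.1 RPM in Nedd4L-cKO mice (log2 fold change 4.25, SE 0.51, limma adjusted p = 0.00371). All 3 WT libraries were under 4 RPM and all 3 Nedd4L-cKO libraries over 30. The related pseudogene BC023105 was at 3.71, 2.68 and 2.68 RPM in WT and 29.3, 69.6 and 18.3 RPM in Nedd4L-cKO (log2 fold change 3.11, adjusted p = 0.00894). Ifi47, an IRG gene of chromosome 11 that the list does not hold, was at 0.0353, 0.31 and 0.857 RPM in the WT mice and 7.60, 15.6 and 11.5 RPM in Nedd4L-cKO mice (log2 fold change 3.16, adjusted p = 0.0038). Irgm1, which regulates the other IRG proteins, was at 77.7, 85.3 and 109 RPM in WT and 304, 424 and 277 RPM in Nedd4L-cKO (log2 fold change 1.86, adjusted p = 0.00894). Igtp, another regulatory member, was at 17.3, 17.1 and 18.6 RPM in WT and 45.2, 65.8 and 40.7 RPM in Nedd4L-cKO (log2 fold change 1.43, adjusted p = 0.040). IRG genes and pseudogenes resemble each other, so the split of reads among close copies is uncertain. In each of these 5 genes the highest value was in Nedd4L-cKO replicate 02, and the groups did not overlap. Tgtp2, an IRG gene with the smallest p of the list, had a mean too low to be called, at 0, 0.224 and 0.44 RPM in WT and 7.34, 9.06 and 7.58 RPM in Nedd4L-cKO (log2 fold change 2.89, adjusted p = 0.00296).

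Among 47 tested interferon-stimulated and antigen presentation genes 3 were called higher and 0 lower, 19 had an unadjusted p under 0.05 and were higher, and the median log2 fold change was 0.53. The called genes named in this paragraph are not all in that list. B2m, the invariant chain of MHC class I, was at 149, 145 and 263 RPM in the WT mice and 623, 720.4 and 737 RPM in Nedd4L-cKO mice (log2 fold change 1.95, SE 0.28, limma adjusted p = 0.0090). Its lowest Nedd4L-cKO value was above its highest WT value, in WT replicate 03. H2-Q6, a class I gene, was at 2.63, 0.879 and 2.24 RPM in WT and 6.92, 10.3 and 14.3 RPM in Nedd4L-cKO (log2 fold change 1.98, adjusted p = 0.0467). H2-Q7 was at 3.49, 5.92 and 6.10 RPM in WT and 12.3, 32.4 and 40.6 RPM in Nedd4L-cKO (log2 fold change 2.13, adjusted p = 0.0467). These class I genes are near-identical copies, so that the split of reads between them is uncertain. Ifitm3, which blocks virus entry, was at 559, 480.2 and 649 RPM in WT and 1812, 1365 and 1278 RPM in Nedd4L-cKO (log2 fold change 1.39, adjusted p = 0.0299). Ifit1, which binds foreign RNA, was at 2.79, 5.48 and 7.58 RPM in WT and 20.2, 56.6 and 17.7 RPM in Nedd4L-cKO (log2 fold change 2.25, adjusted p = 0.049). Ms4a4d, a membrane protein gene, was at 12.96, 20.1 and 19.4 RPM in the WT mice and 84.1, 155 and 104 RPM in Nedd4L-cKO mice (log2 fold change 2.62, adjusted p = 0.00296). Casp4, the caspase that senses lipopolysaccharide in the cytosol, was at 8.81, 8.43 and 19.7 RPM in WT and 55.1, 88.9 and 74.6 RPM in Nedd4L-cKO (log2 fold change 2.54, adjusted p = 0.00835). Both had every Nedd4L-cKO library above every WT library. Rtp4, an interferon-induced chaperone of receptors, rose with a log2 fold change of 2.399, and Trex1, an exonuclease that degrades cytosolic DNA, with one of 1.33. The ISRE letters stood in the promoters of B2m and Cxcl10 above and in those of Irgm1, Igtp and Ifit1, and further in those of Tm4sf1 and Pnp, which rose too, and of Nr1d1 and D830030K20Rik, which fell. The 3 promoters shown are those of the GTPase genes and of the gene that holds the letters most often.
Irgm1, chr11:48871421-48871670, - strand: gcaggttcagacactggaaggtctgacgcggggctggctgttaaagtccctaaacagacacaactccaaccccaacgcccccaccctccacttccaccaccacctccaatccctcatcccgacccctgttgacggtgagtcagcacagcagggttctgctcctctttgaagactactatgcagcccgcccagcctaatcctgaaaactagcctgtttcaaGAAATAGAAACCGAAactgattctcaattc
Igtp, chr11:58199306-58199555, + strand: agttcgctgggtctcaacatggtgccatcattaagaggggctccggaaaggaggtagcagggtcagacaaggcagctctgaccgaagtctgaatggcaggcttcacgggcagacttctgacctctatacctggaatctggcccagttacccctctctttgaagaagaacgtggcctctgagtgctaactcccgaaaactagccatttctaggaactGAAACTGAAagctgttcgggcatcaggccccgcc
Ifit1, chr19:34640639-34640888, + strand: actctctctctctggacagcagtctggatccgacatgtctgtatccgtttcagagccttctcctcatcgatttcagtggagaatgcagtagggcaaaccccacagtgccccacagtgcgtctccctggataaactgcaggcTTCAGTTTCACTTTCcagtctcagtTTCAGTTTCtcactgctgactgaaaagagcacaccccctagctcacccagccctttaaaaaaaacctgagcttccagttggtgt

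The IRG genes on chromosome 18 lie near Nedd4l itself. Gm4841 (chr18:60401377-60406349, GRCm39) is 4.61 Mb from Nedd4l and BC023105 (chr18:60574837-60576052) 4.44 Mb. They were the only genes called among the 103 tested within 10 Mb of Nedd4l (1.94%, beside 0.653% of all tested genes), and the median log2 fold change in that window was 0.21. Other IRG genes of this chromosome are named after their values were seen. Iigp1 was at 17.3, 2.46 and 13.3 RPM in WT and 34.3, 62.4 and 114 RPM in Nedd4L-cKO (log2 fold change 2.72, adjusted p = 0.0637). Gm4951 was at 1.06, 0.158 and 0.165 RPM in WT and 4.33, 3.17 and 3.52 RPM in Nedd4L-cKO (log2 fold change 1.73, adjusted p = 0.0444), under the level limit. The IRG genes of chromosome 11, Ifi47, Irgm1 and Igtp, are on another chromosome than the engineered alleles. Around Pax7, which carries Cre, 2 of 222 tested genes within 10 Mb were called (0.901%), both lower, among them Serinc2 at 9.29 Mb. The part of the engineered chromosomes in these values was not tested.

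**Figure D2:**
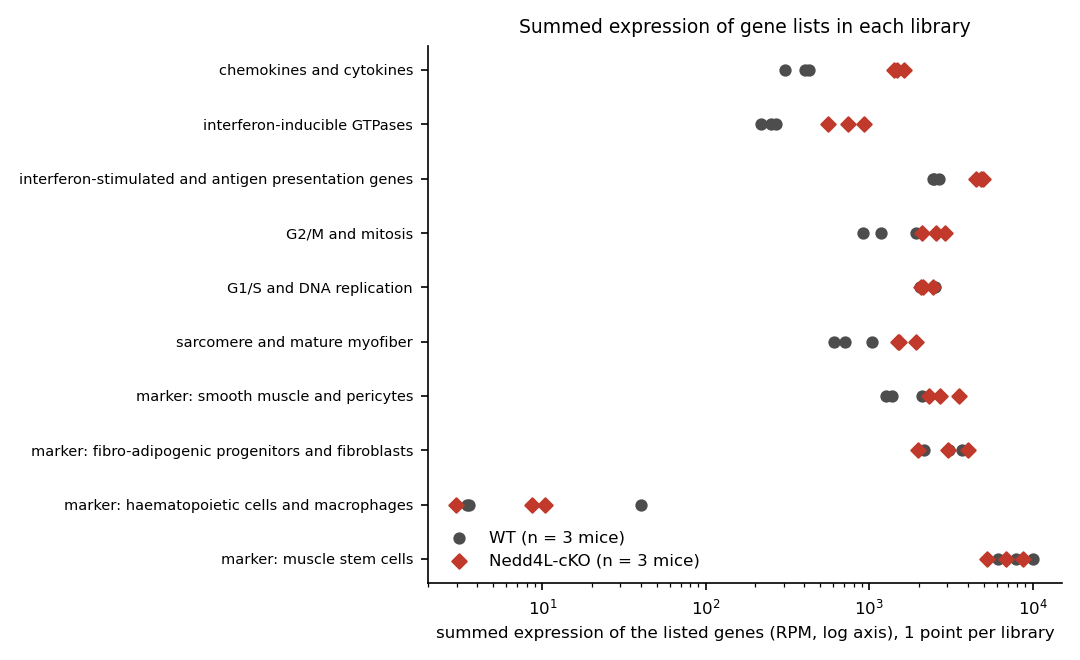
Summed expression of gene lists in RPM on a log axis, with 1 point per library (grey circles 3 WT mice, red diamonds 3 Nedd4L-cKO mice). The chemokine, interferon, G2/M, myofiber and pericyte lists separate the groups, whereas the G1/S, fibroblast, haematopoietic and MuSC marker lists overlap.

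Stress genes rose in several classes. Clu, a secreted chaperone, was at 53.8, 66.4 and 58.8 RPM in the WT mice and 352, 464 and 236 RPM in Nedd4L-cKO mice (log2 fold change 2.49, SE 0.28, limma adjusted p = 0.00296), and no WT library reached 70 RPM. The metallothioneins bind zinc and copper. Mt1 was at 958, 898 and 1059 RPM in WT and 3115, 3620.2 and 2293 RPM in Nedd4L-cKO (log2 fold change 1.61, adjusted p = 0.0149). Mt2, its neighbour on chromosome 8, was at 389, 381 and 459 RPM in WT and 1281, 1322 and 957 RPM in Nedd4L-cKO (log2 fold change 1.52, adjusted p = 0.0176). Both kept the same order of libraries among the Nedd4L-cKO mice. Hspb1, a small heat shock gene, was at 55.6, 55.03 and 51.4 RPM in WT and 169, 185 and 128 RPM in Nedd4L-cKO (log2 fold change 1.54, adjusted p = 0.0184). Hspb8, of the same family, was at 6.36, 3.83 and 2.59 RPM in WT and 20.9, 21.7 and 17.1 RPM in Nedd4L-cKO (log2 fold change 2.05, adjusted p = 0.0268). They were the members called among 40 tested heat shock and unfolded protein genes, of which 15 had an unadjusted p under 0.05 in the higher and 2 in the lower direction. Nupr1, a stress-induced chromatin protein, Gadd45g, a growth arrest gene, and Glrx, which reduces glutathionylated proteins, had log2 fold changes of 1.71, 1.87 and 2.28. Immediate early genes respond to cell dissociation as well as to signals. Gadd45g, Klf2, Ier5 and Ier3 were called higher among 34 tested, of which 25 had a log2 fold change above 0, 7 had an unadjusted p under 0.05 in the higher and 5 in the lower direction, and the median was 0.27. Gadd45g was at 141, 94.9 and 92.6 RPM in WT and 465, 454 and 293 RPM in Nedd4L-cKO (log2 fold change 1.87, adjusted p = 0.0124). Klf2, a transcription factor, was at 7.15, 3.74 and 6.59 RPM in WT and 23.6, 16.9 and 25.1 RPM in Nedd4L-cKO (log2 fold change 1.76, adjusted p = 0.0401). Neither overlapped between the groups. Ier5 was at 23.6, 7.53 and 12.1 RPM in WT and 41.5, 58.8 and 52.1 RPM in Nedd4L-cKO (log2 fold change 1.87, adjusted p = 0.0462). Ier3 was at 32.3, 36.8 and 28.9 RPM in WT and 92.4, 63.01 and 94.5 RPM in Nedd4L-cKO (log2 fold change 1.31, adjusted p = 0.0467). The list's sum was 11578, 13666 and 12767 RPM in WT and 15037, 13034 and 12889.5 RPM in Nedd4L-cKO.

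Several genes of secreted, matrix or membrane proteins rose. Gpc3, a heparan sulphate proteoglycan bound to the membrane by a lipid anchor, was at 12.6, 3.16 and 8.98 RPM in the WT mice and 42.9, 44.7 and 53.1 RPM in Nedd4L-cKO mice (log2 fold change 2.53, adjusted p = 0.0184). Igfbp5, which binds insulin-like growth factors, was at 276, 414 and 288 RPM in WT and 674, 941 and 888 RPM in Nedd4L-cKO (log2 fold change 1.36, adjusted p = 0.0395). Rarres2, the adipokine chemerin, was at 295, 344 and 400.4 RPM in WT and 1128, 1152 and 710.1 RPM in Nedd4L-cKO (log2 fold change 1.498, adjusted p = 0.0299). Ccn5, a matricellular protein, was at 9.08, 4.57 and 2.52 RPM in WT and 33.6, 20.8 and 21.8 RPM in Nedd4L-cKO (log2 fold change 2.15, adjusted p = 0.0395). In none of these 4 did the groups overlap. Serpine2, a protease inhibitor, Flrt2, a membrane protein of cell adhesion, and Vstm2a rose with log2 fold changes between 1.64 and 2.08. The collagen list had 0 of 37 members called and a median of -0.01, and integrins and laminins had 0 of 35 and a median of -0.06.

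Genes of mitosis had mostly higher values in Nedd4L-cKO MuSCs, with 3 of them called, whereas no gene of DNA replication was called. Of 52 tested G2/M genes 50 had a log2 fold change above 0, 25 had an unadjusted p under 0.05 in the higher and 1 in the lower direction, and the median was 0.94, whereas of 47 tested G1/S and replication genes 2 had an unadjusted p under 0.05 in each direction, and the median was 0.13. The difference between the lists was not tested. Ccnb1, the mitotic cyclin, was at 32.8, 11.04 and 9.93 RPM in the WT mice and 91.6, 63.4 and 71.3 RPM in Nedd4L-cKO mice (log2 fold change 2.200, adjusted p = 0.0325). Ube2c, the ubiquitin-conjugating enzyme of the anaphase-promoting complex, was at 14.4, 7.51 and 7.76 RPM in WT and 50.6, 25.7 and 65.7 RPM in Nedd4L-cKO (log2 fold change 2.11, adjusted p = 0.0325). Nusap1, a spindle protein, was at 9.91, 2.71 and 1.95 RPM in WT and 21.9, 22.4 and 24.4 RPM in Nedd4L-cKO (log2 fold change 2.28, adjusted p = 0.0462). WT replicate 01 was the highest WT library in all 3, and the summed G2/M level was 1931, 918 and 1182 RPM in WT and 2911, 2088 and 2571 RPM in Nedd4L-cKO, so that WT replicate 01 approached the lowest Nedd4L-cKO library. Without that library the list's median was 1.44. Cdkn3, a phosphatase of cyclin-dependent kinases, and the histone gene H2bc4 also rose, by 1.84 and 1.56 on the log2 scale. Ccnd3, a G1 cyclin and the G1/S member with the smallest p, went the other way without being called, at 294, 353 and 200.4 RPM in WT and 82.6, 112 and 174 RPM in Nedd4L-cKO (log2 fold change -1.22, adjusted p = 0.108). Cdkn1a, the p21 inhibitor, was higher without being called, at 276, 200.2 and 292 RPM in WT and 727, 557 and 491 RPM in Nedd4L-cKO (log2 fold change 1.204, adjusted p = 0.0599).

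The remaining genes that rose include the most changed of all. Dcx, which encodes the microtubule-binding protein doublecortin of migrating neurons, was at 0.866, 7.01 and 1.27 RPM in the WT mice and 45.3, 91.1 and 111 RPM in Nedd4L-cKO mice (log2 fold change 4.59, SE 0.53, limma adjusted p = 0.00296). In the list of 65 tested axon guidance and neuronal adhesion genes it was the only one called, and 8 others had an unadjusted p under 0.05 in the lower direction against 2 in the higher direction. Ces1d, a carboxylesterase, was at 0.0684, 0.411 and 0 RPM in the WT mice and 7.07, 22.7 and 14.7 RPM in Nedd4L-cKO mice (log2 fold change 3.65, adjusted p = 0.00296), close to 0 in every WT mouse, but carboxylesterase genes form a family of similar copies and the assignment of reads among them is uncertain. Cdc42ep3, an effector of Cdc42, was at 8.57, 5.62 and 4.09 RPM in WT and 56.5, 48.3 and 32.8 RPM in Nedd4L-cKO (log2 fold change 2.74, adjusted p = 0.0038). Septin4, which codes for a septin of the cytoskeleton, had a log2 fold change of 1.71. Tm4sf1, a tetraspanin-like membrane protein, was at 11.1, 12.6 and 22.4 RPM in WT and 73.9, 75.5 and 73.2 RPM in Nedd4L-cKO (log2 fold change 2.26, adjusted p = 0.00581). Id2, an inhibitor of bHLH factors, was at 379, 523 and 511 RPM in WT and 888, 1482 and 1198 RPM in Nedd4L-cKO (log2 fold change 1.32, adjusted p = 0.0467). Other regulators of transcription that rose were Klf2, Hopx, Epas1, which encodes HIF-2alpha, and Ier5, with log2 fold changes between 1.76 and 2.08. Necab1, S100a4 and S100a11, which bind calcium, the cation channel gene Trpm3, the kinase gene Dapk1, the apolipoprotein gene Apoc1, the purine enzyme gene Pnp and the membrane protein gene Tmem176a complete this set, with log2 fold changes between 1.497 and 2.17. Of 39 tested sarcomere genes 2 were called higher and 1 lower, 36 had a log2 fold change above 0, 23 had an unadjusted p under 0.05 in the higher and 2 in the lower direction, and the median was 0.98. The summed level of the list was 1038, 606 and 709.9 RPM in WT and 1932, 1489 and 1527 RPM in Nedd4L-cKO, without overlap. Actc1, the cardiac and embryonic actin, was at 237, 72.7 and 50.6 RPM in WT and 676, 373 and 514 RPM in Nedd4L-cKO (log2 fold change 2.39, adjusted p = 0.0467). Myl1, a fast myosin light chain, was at 38.9, 25.2 and 40.9 RPM in WT and 145, 97.6 and 86.2 RPM in Nedd4L-cKO (log2 fold change 1.61, adjusted p = 0.0325). Actn3, the alpha-actinin of fast fibers, was the gene that fell, at 102, 115 and 72.3 RPM in WT and 36.1, 37.1 and 27.7 RPM in Nedd4L-cKO (log2 fold change -1.47, adjusted p = 0.0327). WT replicate 01 was the highest WT library for Actc1. Of 13 mitochondrially encoded genes mt-Co2 and mt-Co3 were called, all 13 had an unadjusted p under 0.05 in the higher direction, 12 did not overlap between groups, and the median log2 fold change was 0.92. mt-Co2 was at 1879.8, 1953 and 2151 RPM in WT and 5084, 4216 and 4215 RPM in Nedd4L-cKO (log2 fold change 1.17, adjusted p = 0.0399). mt-Co3 was at 4444, 4449 and 6515 RPM in WT and 15528, 11095 and 10649 RPM in Nedd4L-cKO (log2 fold change 1.28, adjusted p = 0.0467). The share of normalized counts in these 13 genes was 2.83%, 3.24% and 4.04% in WT and 5.70%, 5.595% and 6.21% in Nedd4L-cKO libraries.

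**Figure D3:**
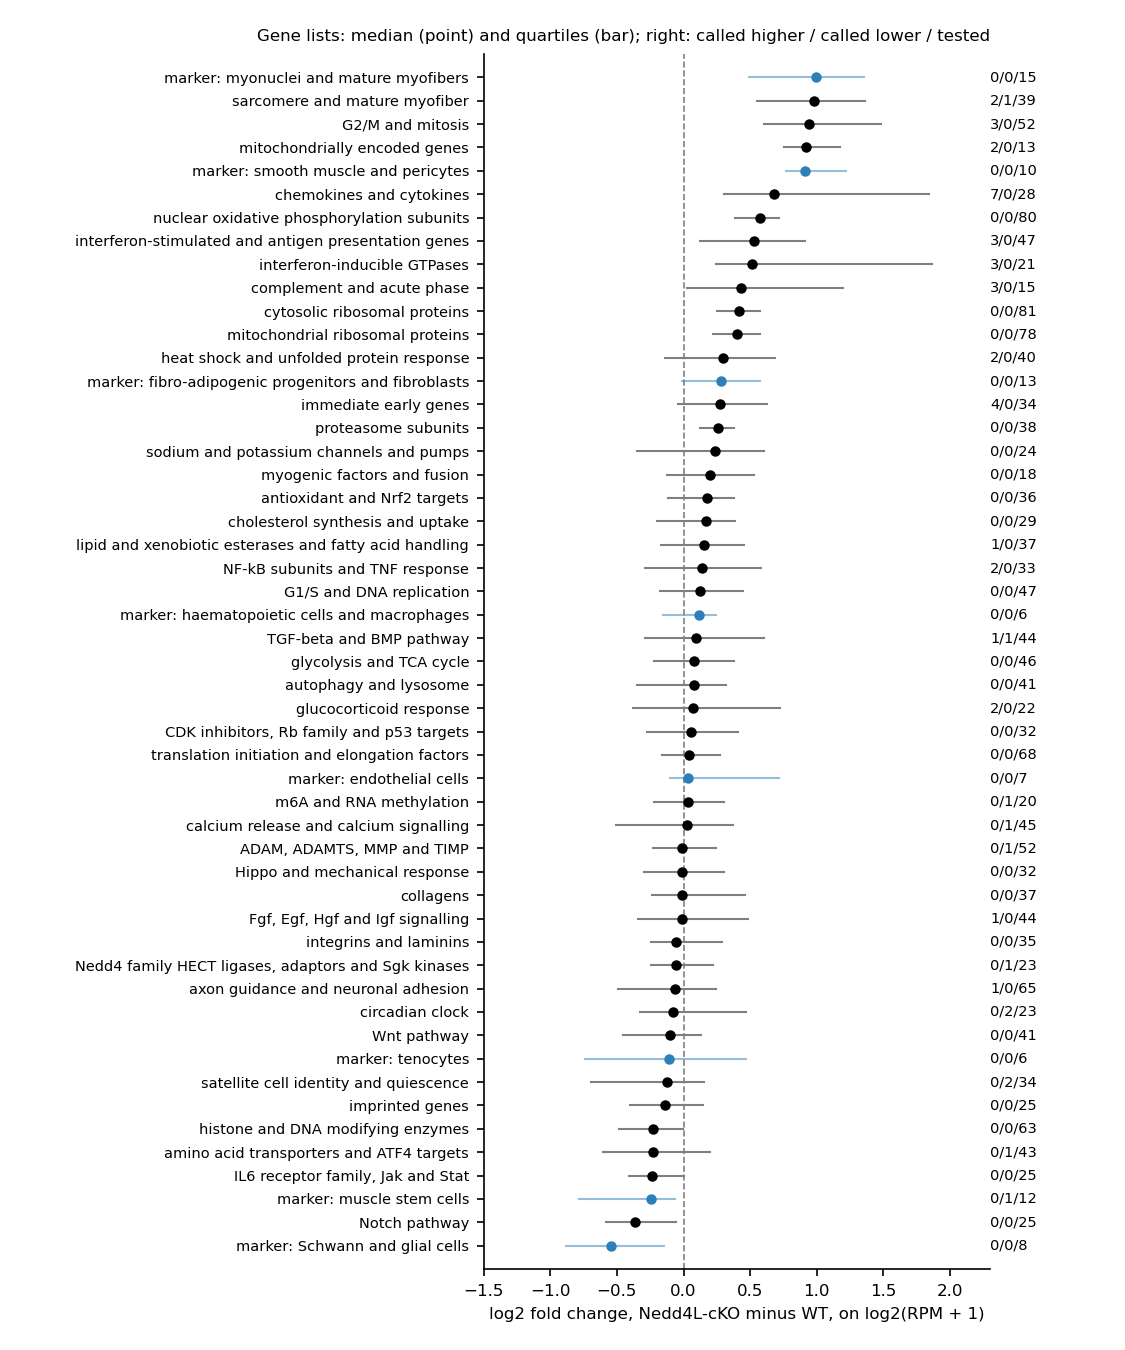
Median log2 fold change (point) and quartiles (bar) of the tested members of each of the 51 gene lists, Nedd4L-cKO minus WT on log2(RPM + 1), with cell type marker lists in blue and the median of all tested genes (0.0015) as a dashed line. The numbers at the right give members called higher, called lower and tested. The mature myofiber, G2/M, mitochondrial, pericyte and chemokine lists lie highest and the Schwann cell marker and Notch lists lowest.

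Among the genes that fell, the clock repressor Nr1d1 had the smallest p. Nr1d1, which encodes the nuclear receptor REV-ERBalpha, was at 135, 109 and 81.2 RPM in the WT mice and 13.1, 11.5 and 15.8 RPM in Nedd4L-cKO mice (log2 fold change -2.898, SE 0.28, limma adjusted p = 0.00191). Every WT library was over 80 RPM and every Nedd4L-cKO library under 16. Its paralog Nr1d2 was at 62.9, 62.3 and 65.02 RPM in WT and 26.5, 27.98 and 18.7 RPM in Nedd4L-cKO (log2 fold change -1.36, adjusted p = 0.0395). Cirbp, an RNA-binding protein induced by cold and cycling with the day, was at 135, 145 and 128 RPM in WT and 60.4, 48.9 and 50.6 RPM in Nedd4L-cKO (log2 fold change -1.34, adjusted p = 0.0293). The rest of the clock list did not follow them as a set. Of 23 tested members Nr1d1 and Nr1d2 were called, 4 had an unadjusted p under 0.05 in the lower and 1 in the higher direction, and the median was -0.08. The core activators Arntl and Clock were not called and are named here after their values were seen. Arntl was at 75.8, 73.7 and 55.3 RPM in WT and 79.7, 102 and 64.1 RPM in Nedd4L-cKO. Clock was at 60.99, 102 and 127 RPM in WT and 75.8, 130.4 and 124 RPM in Nedd4L-cKO. Both overlapped between the groups. The labels give no time of day, so a difference in the hour of dissection cannot be told apart from the genotype.

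**Figure D4:**
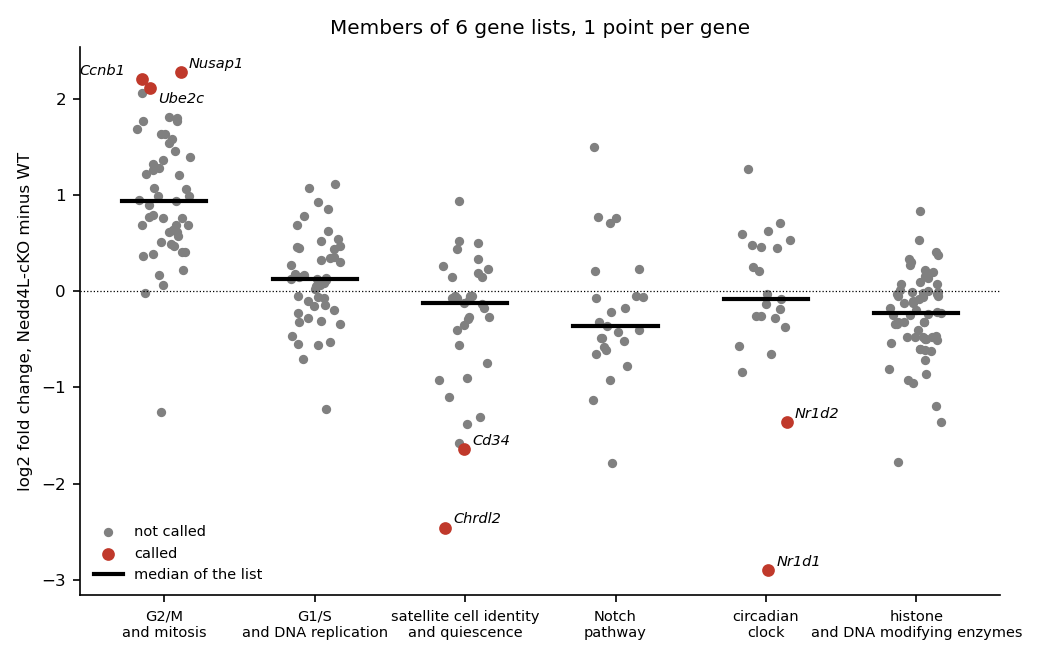
Log2 fold change of every tested member of 6 gene lists, Nedd4L-cKO minus WT, with 1 point per gene, called genes in red and named, and the list's median as a black bar. The G2/M members lie above 0 with 2 exceptions, whereas in the other 5 lists the members spread to both sides of 0 and the called genes Chrdl2, Cd34, Nr1d1 and Nr1d2 are the lowest of their lists.

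Several genes of the cell surface and matrix fell, among them Chrdl2 and Cd34 of the satellite cell identity list. Chrdl2, a chordin-like protein that binds BMPs, was at 287, 317 and 205 RPM in the WT mice and 36.3, 52.4 and 56.4 RPM in Nedd4L-cKO mice (log2 fold change -2.46, SE 0.27, limma adjusted p = 0.00296), with no Nedd4L-cKO library above 57 RPM. Cd34, the surface sialomucin of resting MuSCs and of other progenitors, was at 267, 349 and 243 RPM in the WT mice and 116, 102 and 62.5 RPM in Nedd4L-cKO mice (log2 fold change -1.64, adjusted p = 0.0293). Hmcn2, a basement membrane protein of the hemicentin family, was at 333, 377 and 319.9 RPM in WT and 124, 152 and 173 RPM in Nedd4L-cKO (log2 fold change -1.202, adjusted p = 0.0465). In the list of 34 tested genes of satellite cell identity and quiescence Chrdl2 and Cd34 were called, 8 members had an unadjusted p under 0.05 in the lower and 0 in the higher direction, and the median was -0.13. Of the 34, 10 had a log2 fold change above 0 (29.4%, against 50.1% of all tested genes). Of 25 tested Notch pathway genes none was called, 4 had an unadjusted p under 0.05 in each direction, and the median was -0.36. Hes1, the Notch-induced repressor, was higher in every Nedd4L-cKO library without being called, at 23.95, 46.8 and 56.3 RPM in WT and 102, 107 and 136 RPM in Nedd4L-cKO (log2 fold change 1.49, adjusted p = 0.0584). Rfng, a glycosyltransferase that modifies Notch, was lower, at 14.5, 17.6 and 14.6 RPM in WT and 2.40, 2.17 and 9.26 RPM in Nedd4L-cKO (log2 fold change -1.78, adjusted p = 0.0976). Of 63 tested histone and DNA modifying enzymes 15 had a log2 fold change above 0 (23.8%, against 50.1% of all tested genes), 8 had an unadjusted p under 0.05 in the lower and 1 in the higher direction, and the median was -0.23. Carm1, an arginine methyltransferase that modifies Pax7, had the smallest p of these and was not called, at 13.9, 15.7 and 7.96 RPM in WT and 2.25, 2.29 and 4.20 RPM in Nedd4L-cKO (log2 fold change -1.78, adjusted p = 0.0579).

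Channels, transporters and enzymes made up much of the rest. Ryr3, a ryanodine receptor that releases calcium from the sarcoplasmic reticulum, was at 16.1, 44.95 and 27.6 RPM in the WT mice and 7.06, 3.13 and 2.29 RPM in Nedd4L-cKO mice (log2 fold change -2.56, adjusted p = 0.0268). Cacna2d4, a calcium channel subunit, and Glrb, the beta subunit of the glycine receptor, had log2 fold changes of -1.903 and -1.79. Slc38a1, a glutamine transporter, was at 98.4, 102 and 99.1 RPM in WT and 35.99, 36.7 and 49.5 RPM in Nedd4L-cKO (log2 fold change -1.29, adjusted p = 0.0395), and it was the member called among 43 tested amino acid transporters and ATF4 targets. Serinc2 was at 45.3, 30.99 and 23.98 RPM in WT and 5.75, 5.72 and 12.2 RPM in Nedd4L-cKO (log2 fold change -1.98, adjusted p = 0.0342). Of 24 tested sodium and potassium channel and pump genes, the class to which the best-known Nedd4L substrate belongs, none was called, and the median was 0.23. Of the 24, 6 had an unadjusted p under 0.05 in the higher and 4 in the lower direction (7.51% and 7.13% over all tested genes). The list's sum was 696, 693 and 797 RPM in WT and 1049, 1034 and 940 RPM in Nedd4L-cKO, without overlap.

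Cbll1, the E3 ligase Hakai that also belongs to the m6A writer complex, was at 40.2, 44.7 and 44.7 RPM in the WT mice and 6.07, 3.33 and 13.1 RPM in Nedd4L-cKO mice (log2 fold change -2.55, adjusted p = 0.0158). It was the only member called among 20 tested genes of m6A and RNA methylation. Adamtsl1, a matrix protein, was at 17.8, 13.7 and 18.6 RPM in the WT mice and 6.36, 1.43 and 1.09 RPM in Nedd4L-cKO mice (log2 fold change -2.39, adjusted p = 0.0442). Wscd1, a sulfotransferase, was at 16.2, 8.74 and 7.57 RPM in WT and 1.16, 1.63 and 1.89 RPM in Nedd4L-cKO (log2 fold change -2.15, adjusted p = 0.0299). In all 3 genes the Nedd4L-cKO libraries were wholly below the WT libraries. Ctnnal1, Pdp2, a phosphatase that activates pyruvate dehydrogenase, Sec1, a fucosyltransferase, Ube2v1, a partner of the ubiquitin-conjugating enzyme Ube2n, and Eri3, an exonuclease, fell with log2 fold changes between -1.96 and -1.48. The chromatin genes Zfp512b, Sfmbt1 and Vps72 and the regulators of small GTPases Arl2bp and Arhgap28 fell with log2 fold changes between -1.66 and -1.31. The largest decreases were those of pseudogenes. Ppp1ccb, a pseudogene of a phosphatase, was at 21.9, 11.8 and 6.36 RPM in the WT mice and 0.0886, 0 and 0 RPM in Nedd4L-cKO mice (log2 fold change -3.65, adjusted p = 0.00296). Gm12918 was at 63.5, 60.9 and 82.9 RPM in WT and 5.52, 2.00 and 19.5 RPM in Nedd4L-cKO (log2 fold change -3.23, adjusted p = 0.0268). Pseudogenes share sequence with their parent genes, so the assignment of reads to them is uncertain. The unnamed gene D830030K20Rik was at 3.59, 14.8 and 10.9 RPM in WT and 1.46, 0.798 and 0.38 RPM in Nedd4L-cKO (log2 fold change -2.38, adjusted p = 0.0467). By chromosome, 6 of the 31 genes that fell were on chromosome 4 (0.648% of its tested genes, against 0.203% of all), among them Serinc2.

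The culture table, from other WT mice and normalized separately, shows what the called genes do when MuSCs leave the animal and become proliferating myoblasts. Of the 69 genes that rose in Nedd4L-cKO MuSCs 68 were tested there, and 36 were lower in myoblasts (52.9%, beside 20.6% of all tested genes), 8 higher (11.8%, beside 22.2%) and 24 neither, by limma at an adjusted p of 0.05 or less. Their median log2 fold change from MuSCs to myoblasts was -1.33, against 0.04 over all genes. With the mouse as a block 37 were lower and 11 higher. The shares over all tested genes are not matched for level. Called genes had to reach a mean of 5 RPM in MuSC libraries, which genes seen mainly in myoblasts do not. What this limit adds to the counts was not tested. Of the 13 chemokines, cytokines and TNF-induced genes 11 were lower in myoblasts, as were 7 of the 11 interferon-inducible genes and all 3 class I genes. Cxcl1 was at 60.7, 165 and 191 RPM in those WT MuSCs and 0.0482, 0.013 and 0.077 RPM in myoblasts (log2 fold change -6.91). Cxcl10 was at 5.43, 19.9 and 18.5 RPM in those WT MuSCs and 1.23, 0.115 and 0.725 RPM in myoblasts (-3.08 on the log2 scale). Clu was at 90.5, 222 and 209 RPM in those WT MuSCs and 0.447, 0.11 and 0.441 RPM in myoblasts. Rarres2 was at 400.02, 1127 and 922 RPM in those WT MuSCs and 0.133, 0.378 and 0.124 RPM in myoblasts. Both were under 1 RPM in every myoblast library. All 4 genes were lower in myoblasts than in MuSCs and higher in Nedd4L-cKO than in WT MuSCs.

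The 8 genes that rose in Nedd4L-cKO MuSCs and were also higher in myoblasts were Tnfaip2, Cdc42ep3, Actc1, Tm4sf1, Hspb8, Myl1, Hspb1 and S100a11. Among them Myl1 was at 15.8, 44.4 and 18.3 RPM in those WT MuSCs and 2191, 3051 and 4863 RPM in myoblasts. Hspb8 was at 9.67, 9.76 and 5.78 RPM in those WT MuSCs and 511, 702 and 936 RPM in myoblasts. The 5 called genes of the cell cycle and the 5 regulators of transcription did not pass the threshold between MuSCs and myoblasts in either direction, except H2bc4 with the mouse as a block (adjusted p = 0.0271). Dcx was at 3.84, 32.8 and 37.003 RPM in those WT MuSCs and 0.226, 12.2 and 16.5 RPM in myoblasts, lower in the myoblasts of all 3 mice (log2 fold change -1.49, adjusted p = 0.29, or 0.0133 with the mouse as a block). Of the 31 genes that fell, 16 were also lower in myoblasts (51.6%, beside 20.6% of all tested genes). Another 4 were higher (12.9%, beside 22.2%) and 11 were neither, with a median log2 fold change of -0.84 over the 31. The genes that rose and those that fell thus had like shares lower in myoblasts. Chrdl2 was at 559, 316 and 286 RPM in those WT MuSCs and 2.06, 1.15 and 0.381 RPM in myoblasts. Cd34 was at 437, 128 and 175 RPM in those WT MuSCs and 5.02, 28.1 and 17.7 RPM in myoblasts. Nr1d1 was at 186, 100.3 and 104 RPM in those WT MuSCs and 4.72, 17.8 and 20.6 RPM in myoblasts. These 3 fell in both comparisons. The WT MuSC libraries of the culture table also give a second set of freshly sorted MuSCs. For 53 of the 68 genes that rose all 3 Nedd4L-cKO values were above all 6 WT MuSC values. For 26 of the 31 that fell they were below all 6, though levels set across separately normalized tables are a description. All 100 called genes already lay outside the 3 WT libraries they were called against, so part of this count came with the calls. The share over all tested genes was not determined. Genes that rose without separation from all 6 were Nusap1, Ifit1, Ccnb1, Ccn5, H2-Q7, Ube2c, H2-Q6, Il12a, Gadd45g, Cdkn3, Vstm2a, Septin4, Serpine2, Rarres2 and Igtp. Those that fell without it were Nr1d2, Sfmbt1, Glrb, Adamtsl1 and Ryr3. For each of these genes at least 1 WT MuSC library of the culture table reached the Nedd4L-cKO range. For Ccnb1 all 3 were above every Nedd4L-cKO library, at 98.4, 222 and 169.9 RPM. Nusap1 was at 17.4, 52.6 and 51.4 RPM in them (at most 24.4 in Nedd4L-cKO) and Cdkn3 at 12.7, 27.8 and 34.9 RPM (at most 22.3).

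**Figure D5:**
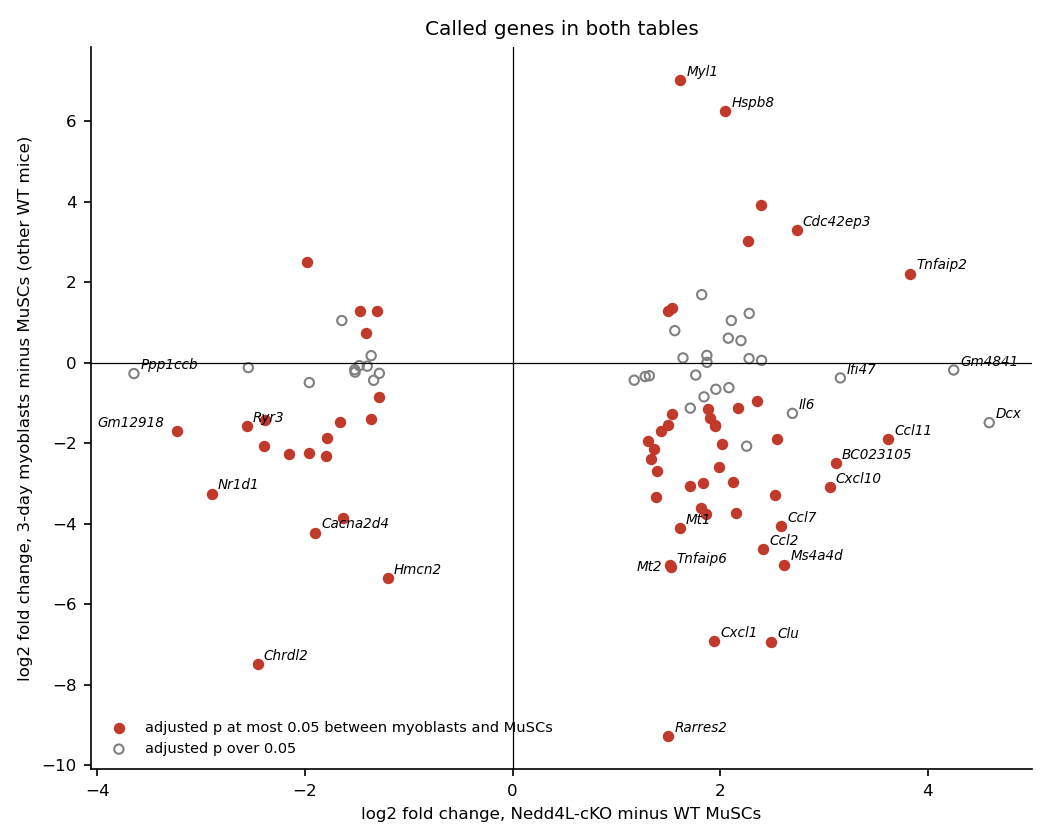
Called genes by their log2 fold change between Nedd4L-cKO and WT MuSCs (horizontal) and between 3-day myoblasts and MuSCs of other WT mice (vertical), with filled points where the second comparison passed an adjusted p of 0.05. At the right, 36 of the 68 genes that rose in Nedd4L-cKO MuSCs are filled points below 0 and 8 are filled points above it.

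Below the level limit, 20 more genes passed an adjusted p of 0.05 (120 in all, 0.784% of tested genes), 11 higher and 9 lower, all with a mean under 5 RPM. They are named after their values were seen. Cxcl13, a B cell attractant, was at 0, 0 and 0.0706 RPM in WT and 4.10, 5.62 and 1.71 RPM in Nedd4L-cKO. Tslp, an epithelial cytokine, was at 2.09, 1.29 and 1.44 RPM in WT and 8.15, 8.30 and 7.71 RPM in Nedd4L-cKO. Akr1c14, a steroid dehydrogenase, was at 0, 0.0234 and 0 RPM in WT and 2.76, 9.03 and 5.29 RPM in Nedd4L-cKO. Gdf6, a BMP family ligand, was at 0.918, 1.15 and 0.541 RPM in WT and 14.03, 5.98 and 6.06 RPM in Nedd4L-cKO. In all 4 the Nedd4L-cKO libraries were wholly above the WT libraries. Of those that were lower, Hpse, which encodes heparanase, was at 3.98, 3.56 and 1.74 RPM in WT and is listed at 0 in all 3 Nedd4L-cKO libraries. Scg2, a secretogranin, was at 2.03, 5.25 and 5.36 RPM in WT and 0, 0 and 0.311 RPM in Nedd4L-cKO. Slc4a4, a bicarbonate transporter, was at 5.29, 13.8 and 5.93 RPM in WT and 0.627, 1.80 and 0.609 RPM in Nedd4L-cKO. An exact 0 can be a failed estimate, so the log2 fold changes given above for Ces1d, Ppp1ccb and Tgtp2, which are listed at 0 in some libraries, depend on the pseudocount.

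The called genes of other lists follow, beside 0.451% of all tested genes called higher and 0.203% called lower. Clu, Mt1 and Mt2 were the called members of the complement and acute phase list (3 of 15 tested, median 0.43), Mt1 and Mt2 those of the glucocorticoid response list (2 of 22), Igfbp5 that of the growth factor list (1 of 44), Ces1d that of the esterase and fatty acid list (1 of 37), Ryr3 that of the calcium list (1 of 45) and Adamtsl1 that of the protease list (1 of 52). The lists of CDK inhibitors and p53 targets (32 tested), autophagy and lysosome (41), antioxidant (36) and Hippo genes (32) held 0 called genes. The TGF-beta and BMP list, which includes substrates of Nedd4L, had Id2 called higher and Chrdl2 lower among 44 tested, with a median of 0.09. The Wnt list had 0 of 41 called, 1 with an unadjusted p under 0.05 in the higher and 5 in the lower direction, the list of imprinted genes 0 of 25, myogenic factors and fusion genes 0 of 18, and glycolysis and TCA cycle genes 0 of 46. Translation factors, with 0 of 68 called and a median of 0.04, differed in their median from the 81 cytosolic ribosomal protein genes (0 called, 27 higher at an unadjusted p under 0.05, median 0.41), a difference that was not tested. Of 80 nuclear oxidative phosphorylation genes 35 and of 78 mitochondrial ribosomal protein genes 16 had an unadjusted p under 0.05 in the higher direction and none in the lower, with 0 called. The proteasome list had a median of 0.26, and its members with the smallest p were the interferon-induced subunits Psmb9 and Psmb8. Psmb9 was at 14.6, 15.2 and 14.8 RPM in WT and 35.9, 33.7 and 29.1 RPM in Nedd4L-cKO (log2 fold change 1.09, adjusted p = 0.0853). Psmb8 was at 28.7, 39.3 and 33.8 RPM in WT and 75.3, 52.7 and 52.5 RPM in Nedd4L-cKO (log2 fold change 0.800, adjusted p = 0.199). In the cholesterol list, 0 of 29 called, the summed level was 4747, 5588 and 5529.6 RPM in WT and 10599, 9628 and 6070.01 RPM in Nedd4L-cKO, mostly through Apoe, at 2476, 3001 and 2831 RPM in WT and 7181, 6512 and 3845 RPM in Nedd4L-cKO (log2 fold change 1.03, adjusted p = 0.114).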

How the data were processed

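MuSC libraries of 3 WT and 3 Nedd4L-cKO mice (1 library per mouse) and, from a separately normalized table, MuSCs and 3-day myoblasts of 3 other WT mice were used. Reads (75 bp, single end) were quantified by the authors with Kallisto (0.46.1; fragment length 200) against GENCODE M28 and summed per gene with tximport. The deposited values are signal, estimated counts divided by DESeq2 normalization factors, from which whole reads could not be recovered, so no count model was run and read depth is unknown. Kallisto shares reads among similar transcripts by estimation, which makes values of near-identical copies uncertain. The deposited columns of RPM, fold change, p and adjusted p are the authors' comparisons and were not used. Here, values were divided by the mean total of the libraries of a table and expressed as RPM. A gene was tested if 3 or more libraries held 10 or more normalized counts. Tests were made with limma (3.58.1; R 4.3.3; trend and robust options) on log2(RPM + 1), and p-values were adjusted by the Benjamini-Hochberg method over all tested genes. Intervals are 95% confidence intervals of limma. With 3 against 3 libraries an exact two-sided permutation test of a single gene cannot give a p below 0.1, so none was used. The calls required an adjusted p of 0.05 or less, a log2 fold change of at least 1 in size and a mean of at least 5 RPM. Positions (GRCm39) come from GENCODE M39 and promoters from RefSeq. Figures were drawn with matplotlib (3.10.9) in Python (3.11.15), and the code was tested on simulated data.

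Values of every library were given for Nedd4l, for Pax7 and for the 15 largest increases and 10 largest decreases among called genes with separated groups. Other called genes were named in their role group. From each list the called members and the 2 members with the smallest p were eligible to be named, some lists are given by counts alone, and a few genes are not reported here. The members, lists and role groups were chosen with earlier results of these data known. WT and Nedd4L-cKO libraries that share a number were made from different mice, and the labels do not give them as pairs. In the culture table the labels give MuSCs and myoblasts of the same mouse one number (correlations of deviations between -0.0314 and 0.0180). Alternatives were TMM factors, scaling to each library's own total or without mitochondrially encoded genes, pseudocounts of 0.1 and 5, other filters on low values, limma without trend and robust options, a replicate block and leaving out each library.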

Additional observations from a re-analysis of the deposited data

How the results depend on the processing

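Of the 100 calls between Nedd4L-cKO and WT MuSCs, the number was 195 when every library had to hold at least 10 normalized counts (213 at an adjusted p of at most 0.05), 41 without the trend and robust options of limma (50) and 62 with a replicate block (76), and it ran from 17 (without Nedd4L-cKO replicate 02) to 148 (without WT replicate 03) when 1 library was left out (21 to 176). Under the remaining alternatives it lay within 1.5 times of 100. The log2 fold change of Nedd4l missed an adjusted p of 0.05 at pseudocounts of 0.1 (-1.39) and 5 (-1.26), and at -1.37 without a filter, without trend and robust options and with the replicate block. It lay between -1.52 and -1.19 when 1 library was left out. Within 5 Mb of Pax7 1 gene was called. No called gene turned its direction under any alternative. Scaling to each library's own total moved the median of all genes by -0.091. The labels do not give same-numbered WT and Nedd4L-cKO mice as pairs, so the block is given here only. Correlations of deviations between them were 0.0192, -0.0232 and -0.181. In the culture table, where the same mouse gave both libraries, they were also near 0 (-0.0314 to 0.0180), so they cannot show whether libraries pair. With the mouse as a block in the culture table no count moved by over 1.5 times. The causes were not tested. With 3 libraries of 1000 cells per group and unknown read depth, changes of genes near 0 could not be resolved.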
